A study of Mus musculus with 9 samples.

Results

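The genes described here make sterols and fatty acids, and were followed in RN2, a line of murine acute myeloid leukaemia cells carrying the MLL-AF9 fusion and the NrasG12D allele. Of 38 listed genes, 37 had a probe set whose platform annotation names that gene alone, and these 37 genes have 40 of the 34760 probe sets on the array. They comprise 17 sterol enzymes, 7 genes of sterol sensing, transport and receptor turnover, 12 fatty acid enzymes and Chpt1, of phosphatidylcholine synthesis. Acat2, a listed sterol gene, was not analysed here. The list was drawn up by function, with earlier results of these data known.

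All cells carried a construct of the TRMPV type that expresses a short hairpin RNA under doxycycline, and all received 1 ug/ml doxycycline for 96 h. Brg1sh_3232, Brg1sh_3364 and Brg1sh_4935 are hairpins against Brg1, the SWI/SNF chromatin remodelling ATPase encoded by Smarca4, and were measured on 2 arrays each. The hairpin Rluc targets Renilla luciferase, a gene foreign to mouse cells, and was measured on 3 arrays. For the Rluc arrays the labels give the cell line name with the added term TtTMPV, so that name and hairpin cannot be told apart. One cell line was studied, and whether replicates are independent cultures is not stated, so each p-value weighs a difference only against the variation among these arrays, which may be technical. The comparison of each Brg1 hairpin with Rluc asks which transcripts change when Brg1 is lowered in this leukaemia.

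Cholesterol is built from acetyl-CoA through mevalonate, farnesyl diphosphate, squalene and lanosterol, and the sterol ring is then trimmed by a chain of reductases, isomerases and desaturases. Fatty acids start from the same acetyl-CoA, are built to palmitate by fatty acid synthase, and are then lengthened by elongases and given double bonds by desaturases. Many genes of both routes are switched on by the SREBP transcription factors, which the escort protein SCAP carries out of the endoplasmic reticulum when sterols are scarce and which the INSIG proteins hold back when sterols are plentiful. Dividing cells, leukaemic ones included, draw on both routes for new membrane.

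Values are log2 expression after RMA, a procedure that corrects background, equalises the arrays and summarises the probes of a set. A difference of 1 on this scale is a doubling of signal, and array background makes differences smaller than the change in RNA. A gene was called when limma's test, fitted to all 9 arrays and adjusted by Benjamini-Hochberg over 19937 genes, gave an adjusted p below 0.05. The mean of the 3 hairpin groups minus Rluc is named the mean change below, and SE is its standard error in that fit. In bulk RNA, fewer cells of a type and less RNA per cell cannot be told apart.

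The array medians lay between 7.39 and 7.49. The targeted gene Smarca4 stood at 10.67 and 10.90 with Brg1sh_3232, 10.78 and 10.81 with Brg1sh_3364, 10.70 and 10.76 with Brg1sh_4935, against 11.79, 11.77 and 11.79 with Rluc, and its mean change was -1.01 (SE 0.05, adjusted p = 2.22e-06). All 8 fixed markers of the myeloid leukaemia line had levels above the median of all genes, and 5 of them rose and 2 fell. The falls were those of Mpo, by 0.87 (SE 0.05, adjusted p = 3.11e-06), and Cebpa, by 0.61 (SE 0.04, adjusted p = 1.58e-05), while Ptprc, Spi1, Itgam, Cd33 and Csf3r rose and Kit was not called. Of 9 measured macrophage markers 7 rose and 0 fell, and their list mean was 9.60 to 10.01 over knockdown arrays and 9.10 to 9.13 over Rluc arrays. Of 7 mast cell, basophil and eosinophil markers 2 rose and 4 fell, with list means of 8.29 to 8.61 over knockdown arrays and 7.96 to 8.16 over Rluc arrays. Of the lymphoid, liver, fat and fibroblast markers 1 gene was called, Apoa2 of the liver list, which fell by 0.13. The part of these myeloid and macrophage markers in the results on lipid genes was not tested.

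Of the 37 measured members 22 fell and 2 rose in the mean change, and 13 were not called. The background for this comparison is 15.0% of all 19937 genes called as falling and 13.3% called as rising. Members are mostly well expressed: 35 of 37 lay at or above the median level of all genes, and among all genes at or above that level 27.0% fell and 23.0% rose. The median change over the 37 members was -0.32, against -0.00 over all genes. By hairpin, 20 members fell and 0 rose for Brg1sh_3232 (background 11.3% and 9.59%), 18 fell and 2 rose with Brg1sh_3364 (12.2% and 13.6%), and 23 fell and 1 rose with Brg1sh_4935 (12.3% and 9.79%). The 3 comparisons share the same Rluc arrays. Falls were called with each of the 3 hairpins for 17 members, against 6.14% of all genes, and rises for 0 members, against 6.10%. The shares for single hairpins and for all 3 were not computed among genes at or above the median level. With any 1 array left out, 9 of the 17 kept all their calls (Sqle, Cyp51, Fasn, Scd2, Elovl5, Elovl6, Fads1, Fads2 and Chpt1). For the other 8 (Hmgcs1, Mvk, Mvd, Idi1, Hsd17b7, Sc5d, Dhcr7 and Insig1) at least 1 single-hairpin call was lost, with adjusted p of 0.0543 to 0.181.

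**Figure D1:**
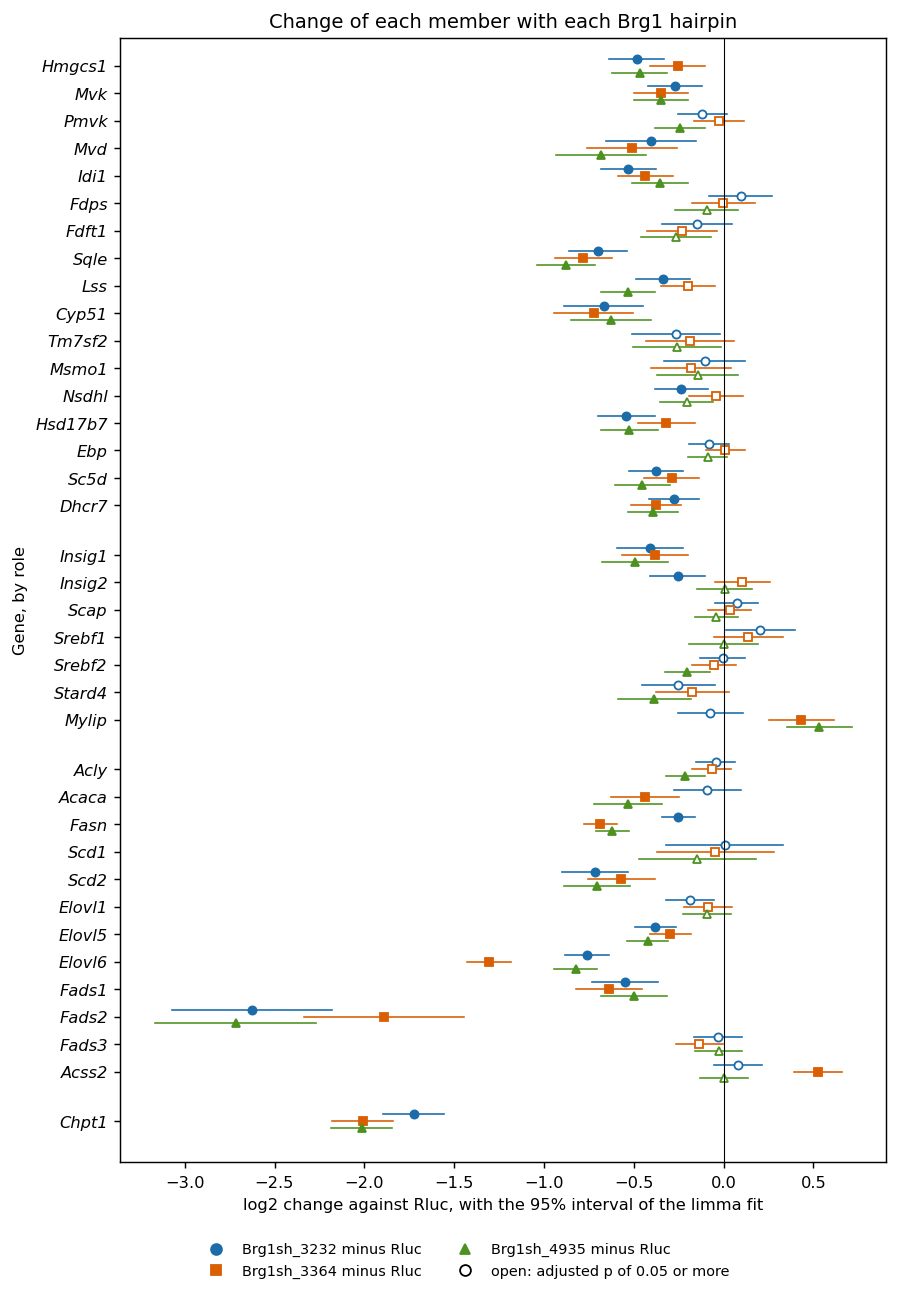
Log2 change of each of the 37 measured members against Rluc, by hairpin, with the unadjusted 95% interval of the limma fit. Filled markers have an adjusted p below 0.05. Most points lie left of 0, those of Fads2 and Chpt1 farthest, while Mylip and Acss2 have filled markers to the right.

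Sterol enzymes are described first, in pathway order. Of 17 measured, 12 fell in the mean change, 0 rose and 5 were not called, with a median change of -0.35. By hairpin, 11 were called as lower for Brg1sh_3232, 9 for Brg1sh_3364 and 11 for Brg1sh_4935, and medians were -0.28, -0.25 and -0.35. For 10 of the 17 every knockdown array lay below every Rluc array, as for 12.1% of all genes. That share was not computed among genes at or above the median level. The 5 largest mean changes were those of Sqle, Cyp51, Mvd, Hsd17b7 and Idi1. The count for Brg1sh_3232 was 7 with either 1 of its arrays left out, and the count for Brg1sh_3364 was 5 without its replicate 2.

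Hmgcs1, which joins acetyl-CoA to acetoacetyl-CoA at the head of the route, fell by 0.40 (SE 0.05, adjusted p = 0.000449). Its mean was 10.19 ± 0.13 over knockdown arrays (SD, n = 6) and 10.59 ± 0.07 over Rluc arrays (SD, n = 3), and the groups did not overlap. Its smallest single-hairpin change was that with Brg1sh_3364, -0.25 (SE 0.07, adjusted p = 0.0226), and this call was lost when either array of that hairpin was left out (adjusted p = 0.0842 without replicate 1 and 0.126 without replicate 2), without Rluc replicate 1 (0.0635) and without Rluc replicate 2 (0.0568). Of the mevalonate kinases, Mvk fell by 0.32 (SE 0.05, adjusted p = 0.00137) and Pmvk, the next enzyme, had a mean change of -0.13 (SE 0.05, adjusted p = 0.0786). With single hairpins Pmvk was called for Brg1sh_4935, at -0.24 (SE 0.06, adjusted p = 0.0194), and was not called when 1 array of that hairpin was left out (adjusted p = 0.122 without replicate 1 and 0.0898 without replicate 2). The F test over the hairpins did not call a difference between them (adjusted p = 0.139).

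Mvd encodes the decarboxylase that makes isopentenyl diphosphate, the isoprenoid unit. Its log2 levels were 9.87 and 9.98 with Brg1sh_3232, 9.88 and 9.77 with Brg1sh_3364, 9.65 and 9.64 with Brg1sh_4935, against 10.52, 10.39 and 10.08 with Rluc. All knockdown arrays were below all Rluc arrays, and Rluc replicate 3 lay nearest to them. The mean change was -0.53 (SE 0.09, adjusted p = 0.00147). Over the alternatives it ran from -0.66, reached without Rluc replicate 3 (adjusted p = 0.000104), to -0.44, and stayed called. With single hairpins it was -0.40 for Brg1sh_3232 (adjusted p = 0.031), -0.51 for Brg1sh_3364 (0.00875) and -0.68 for Brg1sh_4935 (0.00214). The Brg1sh_3232 call was lost in 11 of 19 alternatives, among them without Rluc replicate 1 (adjusted p = 0.0657) or Rluc replicate 2 (0.09).

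Idi1 interconverts the isoprenoid units and has 2 probe sets. On the brighter one, its levels were 11.40 and 11.25 with Brg1sh_3232, 11.48 and 11.35 with Brg1sh_3364, 11.55 and 11.45 with Brg1sh_4935, against 11.91, 11.79 and 11.86 with Rluc. The groups were apart there, and the mean change was -0.44 (SE 0.05, adjusted p = 0.00027). On the second probe set the levels were 10.89 and 10.80 with Brg1sh_3232, 11.09 and 10.80 with Brg1sh_3364, 10.94 and 10.97 with Brg1sh_4935, against 11.70, 11.68 and 11.76 with Rluc, again apart, with a mean change of -0.79 (SE 0.07, adjusted p = 0.000413) adjusted over every row of the table. Direction was the same on both, and the second probe set gave the larger change.

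Fdps, farnesyl diphosphate synthase, had a mean change of -0.00 (SE 0.06, adjusted p = 0.996), with a 95% interval of -0.14 to 0.14. Its levels overlapped between groups. Over the alternatives its mean change ran from -0.08 to 0.06 and was not called. Whether it differed from its neighbours in the pathway was not tested. Fdft1, squalene synthase, fell by 0.22 (SE 0.07, adjusted p = 0.0386), but was called with no single hairpin and lost its call in 13 of 23 alternatives, among them hairpin means as replicates (adjusted p = 0.141). Its second probe set had a mean change of -0.24 (SE 0.07, adjusted p = 0.059).

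Sqle, squalene epoxidase, which adds the first oxygen to the sterol backbone, had the largest change of the sterol enzymes. Its levels were 10.93 and 10.75 with Brg1sh_3232, 10.81 and 10.70 with Brg1sh_3364, 10.72 and 10.60 with Brg1sh_4935, against 11.51, 11.60 and 11.50 with Rluc. All 6 knockdown arrays lay well below the lowest Rluc array. On average it changed by -0.79 (SE 0.05, adjusted p = 1.32e-05), or 58% of the Rluc level (95% interval 53.2% to 63.3%). The 3 hairpins gave -0.70 with Brg1sh_3232, -0.78 with Brg1sh_3364 and -0.88 with Brg1sh_4935.

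Lss, lanosterol synthase, closes the ring and fell by 0.36 (SE 0.05, adjusted p = 0.000773), with all knockdown arrays below Rluc. Its change was -0.34 with Brg1sh_3232 (adjusted p = 0.00662), -0.20 with Brg1sh_3364 (adjusted p = 0.0555) and -0.53 with Brg1sh_4935 (adjusted p = 0.000511). The difference between Brg1sh_4935 and Brg1sh_3364 was itself called, at -0.33 (SE 0.07, adjusted p = 0.0259). With hairpin means as replicates the mean change of Lss was not called (adjusted p = 0.0562), nor with hairpin as a random block (0.0504), and the call with Brg1sh_3232 was lost without its replicate 2 (adjusted p = 0.0662).

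Cyp51, the lanosterol demethylase, had log2 levels of 9.83 and 9.60 with Brg1sh_3232, 9.79 and 9.53 with Brg1sh_3364, 9.80 and 9.72 with Brg1sh_4935, against 10.50, 10.32 and 10.32 with Rluc. The groups did not overlap, and the 2 arrays of Brg1sh_3232, like those of Brg1sh_3364, lay farther apart than the means of the hairpins. Averaged over hairpins, the change was -0.67 (SE 0.08, adjusted p = 0.000188), or 62.7% of the Rluc level (95% interval 55.7% to 70.6%).

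Tm7sf2 and the demethylation enzymes Msmo1 and Nsdhl, which act after Cyp51, showed small changes. Tm7sf2, a sterol reductase, had a mean change of -0.24 (SE 0.08, adjusted p = 0.0672), and Msmo1, the methylsterol oxidase, one of -0.14 (SE 0.08, adjusted p = 0.225). In both genes 1 or more Rluc arrays lay among the knockdown arrays. Tm7sf2 was called without Rluc replicate 3 (adjusted p = 0.00241). Nsdhl, the dehydrogenase of the same demethylation complex, fell by 0.16 (SE 0.05, adjusted p = 0.0425), a call that was lost in 14 of 23 alternatives, among them hairpin means as replicates (adjusted p = 0.223).

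Hsd17b7, the ketone reductase that completes demethylation, had levels of 10.82 and 10.84 with Brg1sh_3232, 11.08 and 11.03 with Brg1sh_3364, 10.86 and 10.84 with Brg1sh_4935, against 11.23, 11.42 and 11.47 with Rluc. Knockdown arrays were all below Rluc, and the Brg1sh_3364 arrays were the highest among them. Its mean change was -0.46 (SE 0.05, adjusted p = 0.000234), made up of -0.54 with Brg1sh_3232, -0.32 with Brg1sh_3364 and -0.53 with Brg1sh_4935, a difference between hairpins that the F test did not call (adjusted p = 0.143).

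Of the last steps of the route, Ebp, the sterol isomerase, had a mean change of -0.05 (SE 0.04, adjusted p = 0.371) with a 95% interval of -0.14 to 0.03. Sc5d, the lathosterol desaturase, fell by 0.37 (SE 0.05, adjusted p = 0.000653) and Dhcr7, the final reductase, by 0.35 (SE 0.05, adjusted p = 0.00058). Both lay below Rluc in all 6 knockdown arrays and were called with each hairpin. The Sc5d call with Brg1sh_3364 was lost without its replicate 1 (adjusted p = 0.0563) or its replicate 2 (0.0842), and the Dhcr7 call with Brg1sh_3232 without its replicate 1 (0.0907). Along the route, then, enzymes whose change was near 0 (Fdps and Ebp) stood next to enzymes that fell.

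**Figure D2:**
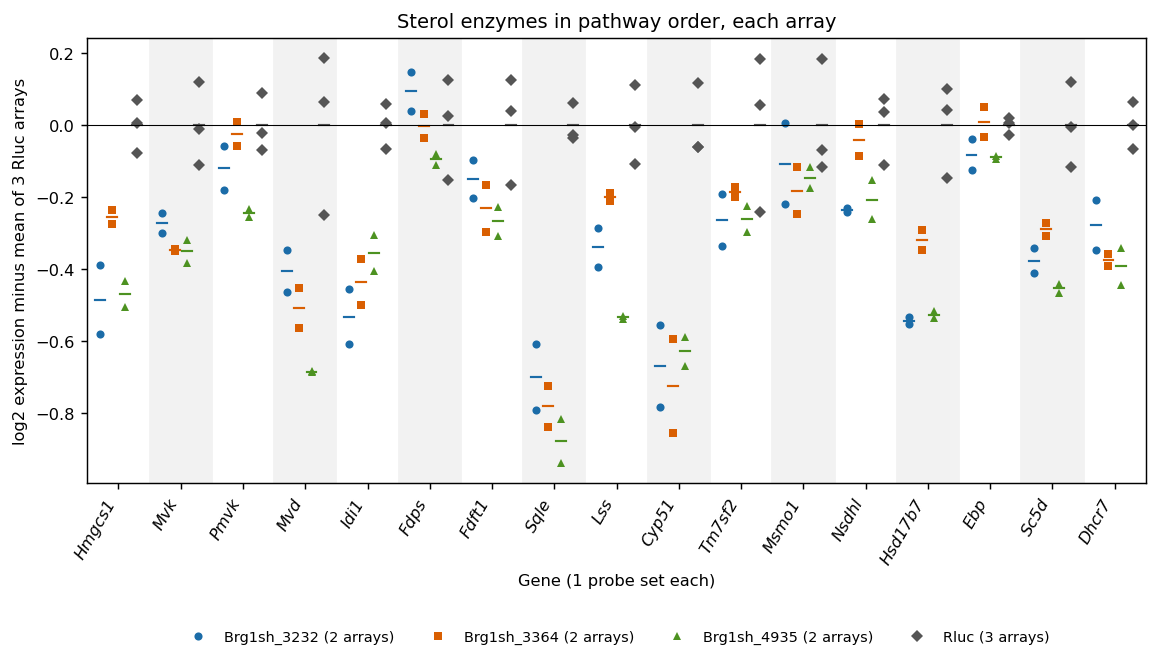
Log2 expression of the 17 measured sterol enzymes in each array, relative to the mean of the 3 Rluc arrays, with genes in pathway order. Points are arrays and short lines group means. Sqle and Cyp51 lie lowest, and knockdown and Rluc arrays overlap for Pmvk, Fdps, Fdft1, Tm7sf2, Msmo1, Nsdhl and Ebp.

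The spread among the 3 Rluc arrays had a shape of its own in these genes. Rluc replicate 3 was the lowest of the 3 for 14 of 17 sterol enzymes and for 24 of 37 members, against 29.8% of all genes. Its median distance from the mean of the other Rluc arrays was -0.16 for sterol enzymes and 0.00 for all genes. Without Rluc replicate 3, 13 sterol enzymes fell in the mean change, and 10 fell without Rluc replicate 1 or without Rluc replicate 2.

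Genes that sense and move sterols did not all follow the enzymes. Of 7 measured, 2 fell, 1 rose and 4 were not called in the mean change, with a median of -0.05. Insig1 encodes an endoplasmic reticulum protein that retains SCAP and is itself a target of SREBP. Its levels were 11.30 and 11.47 with Brg1sh_3232, 11.44 and 11.38 with Brg1sh_3364, 11.31 and 11.29 with Brg1sh_4935, against 11.87, 11.87 and 11.63 with Rluc. All knockdown arrays were lower than all Rluc arrays, and the hairpins gave -0.41 with Brg1sh_3232, -0.38 with Brg1sh_3364 and -0.49 with Brg1sh_4935 (F test adjusted p = 0.671). On average the change was -0.43 (SE 0.06, adjusted p = 0.000869).

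Insig2, the second retention protein, differed between hairpins. Its levels were 9.91 and 9.88 with Brg1sh_3232, 10.31 and 10.20 with Brg1sh_3364, 10.24 and 10.08 with Brg1sh_4935, against 10.06, 10.19 and 10.21 with Rluc. Only the Brg1sh_3232 arrays lay below Rluc, and those of the other hairpins overlapped with Rluc. The F test called the difference (adjusted p = 0.0314), with Brg1sh_3364 minus Brg1sh_3232 at 0.36 (SE 0.07, adjusted p = 0.0175).

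Scap, the escort itself, had a mean change of 0.02 (SE 0.04, adjusted p = 0.779). The transcription factor genes were not called in the mean change over all arrays: Srebf2, which mainly serves sterol genes, had -0.09 (SE 0.04, adjusted p = 0.184), and Srebf1, which mainly serves fatty acid genes, had 0.11 (SE 0.07, adjusted p = 0.269). Their 95% intervals were -0.18 to 0.01 and -0.04 to 0.26. Without Rluc replicate 3 the mean change of Srebf2 was -0.13 and was called (adjusted p = 0.0436). Srebf2 fell with Brg1sh_4935 by 0.20 (SE 0.05, adjusted p = 0.0273), a call lost in several alternatives, among them leaving out its replicate 1 (adjusted p = 0.127), its replicate 2 (0.13), Rluc replicate 1 (0.0708) or Rluc replicate 2 (0.0801). These are transcript levels, and the activity of SREBP depends on processing of the protein, which was not measured.

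Stard4, a carrier of cholesterol between membranes, had levels of 10.37 and 10.27 with Brg1sh_3232, 10.37 and 10.42 with Brg1sh_3364, 10.22 and 10.15 with Brg1sh_4935, against 10.75, 10.56 and 10.40 with Rluc. Rluc replicate 3 lay just under the highest knockdown array, and the other Rluc arrays lay above them all. The mean change was -0.27 (SE 0.07, adjusted p = 0.0166), which did not pass with hairpin means as replicates (adjusted p = 0.132), without Brg1sh_4935 (0.102), without Rluc replicate 2 (0.0524) and without Brg1sh_4935 replicate 2 (0.0503).

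Mylip, a ubiquitin ligase for lipoprotein receptors and a target of the sterol-activated LXR receptors, moved the other way. Its levels were 9.78 and 9.91 with Brg1sh_3232, 10.40 and 10.30 with Brg1sh_3364, 10.45 and 10.45 with Brg1sh_4935, against 9.78, 10.05 and 9.93 with Rluc. Arrays of Brg1sh_3364 and Brg1sh_4935 lay above all Rluc arrays, and those of Brg1sh_3232 did not. Changes were -0.07 with Brg1sh_3232 (adjusted p = 0.612), 0.43 with Brg1sh_3364 (adjusted p = 0.00364) and 0.53 with Brg1sh_4935 (adjusted p = 0.0014). The F test called the difference (adjusted p = 0.0057), and the mean change of 0.30 (SE 0.06, adjusted p = 0.0058) did not pass with hairpin means as replicates (adjusted p = 0.319) and without Brg1sh_3364 (0.051) or Brg1sh_4935 (0.127).

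Promoter sequence was examined because most sterol enzymes moved together. RefSeq windows on build GRCm38.p6, from 250 bases before to 50 after a gene's start, were at hand for 30 of the 37 measured members. They were searched on both strands for CCAAT, the box bound by NF-Y, for TCACNCCAC, the core of the sterol regulatory element bound by SREBP, and for the E-box CACGTG. The NF-Y box was in the windows of 14 of 14 sterol enzymes, 5 of 6 sensing genes, 6 of 9 fatty acid enzymes and Chpt1, and in those of 41.1% of all genes (43.5% of measured genes at or above the median level). The sterol element core was in 1 member, Hmgcs1, and in 1.44% of all genes. CACGTG was in 6 members (Dhcr7, Hsd17b7, Sc5d, Elovl5, Insig1 and Scap) and in 8.09% of all genes (12.3% of those at or above the median level). Such a match describes letters in a window, and windows with CCAAT include those of sterol enzymes that were not called, such as Ebp and Msmo1.

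Stretches before the start site are shown for 4 genes that fell with each hairpin and hold such motifs, Hmgcs1 (chr13:119690161-119690320, plus strand), Idi1 (chr13:8885526-8885605, plus strand), Cyp51 (chr5:4104712-4104791, minus strand) and Insig1 (chr5:28071186-28071326, plus strand). Fasn (chr11:120824592-120824671, minus strand) and Fads2 (chr19:10101504-10101603, minus strand) are added as fatty acid genes that fell, one with the CCAAT box and one with none of the motifs in its window. Sequences run 5′ to 3′ in the direction of the gene. Capitals mark CCAAT or its reverse complement ATTGG, the sterol element core in Hmgcs1 and the E-box in Insig1. In Fasn a forward and a reverse box overlap, and they are joined in 1 run of capitals.
Hmgcs1: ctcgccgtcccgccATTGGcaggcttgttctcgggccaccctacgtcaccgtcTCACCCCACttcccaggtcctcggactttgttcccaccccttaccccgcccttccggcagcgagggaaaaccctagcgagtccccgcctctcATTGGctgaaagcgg
Idi1: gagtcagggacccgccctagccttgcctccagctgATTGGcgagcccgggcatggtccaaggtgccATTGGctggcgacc
Cyp51: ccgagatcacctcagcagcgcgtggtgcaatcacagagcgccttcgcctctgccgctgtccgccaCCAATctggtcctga
Insig1: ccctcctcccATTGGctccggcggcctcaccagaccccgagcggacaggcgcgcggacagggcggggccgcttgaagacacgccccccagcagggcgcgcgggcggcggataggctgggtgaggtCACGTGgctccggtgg
Fasn: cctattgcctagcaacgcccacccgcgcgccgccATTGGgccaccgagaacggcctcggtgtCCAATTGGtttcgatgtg
Fads2: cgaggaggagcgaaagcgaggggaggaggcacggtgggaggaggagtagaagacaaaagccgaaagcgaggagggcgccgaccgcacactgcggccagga

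Hmgcs1 thus holds both an NF-Y box and the sterol element core in the stretch shown, and had a mean change of -0.40. The stretches of Cyp51 and Idi1 hold the box alone, and their mean changes were -0.67 for Cyp51 and -0.44 for Idi1. Fads2, with none of the motifs in its window, had the largest change of all members. The genes shown were not chosen by a fixed rule, and any relation between motifs and changes was not tested.

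Most fatty acid enzymes also fell. Of 12 measured, 7 fell, 1 rose and 4 were not called in the mean change, with a median of -0.36. By hairpin, 6 were called as lower for Brg1sh_3232, 7 for Brg1sh_3364 and 8 for Brg1sh_4935. The F test over the hairpins called 4 of the 12 (background 10.5% of all genes), against 1 of 17 sterol enzymes. The difference between these counts was not tested, and the share among genes at or above the median level was not computed.

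Acetyl-CoA supply came first. Acly, which cleaves citrate to acetyl-CoA, had a mean change of -0.11 (SE 0.04, adjusted p = 0.0582) and fell with Brg1sh_4935 by 0.21 (SE 0.05, adjusted p = 0.0109). That call was lost without Brg1sh_4935 replicate 1 (adjusted p = 0.097). Acss2 makes acetyl-CoA from acetate and was the one fatty acid enzyme that rose. Its levels were 8.68 and 8.70 with Brg1sh_3232, 9.12 and 9.15 with Brg1sh_3364, 8.68 and 8.54 with Brg1sh_4935, against 8.61, 8.68 and 8.54 with Rluc. Arrays of Brg1sh_3364 were the highest, those of Brg1sh_3232 lay just above all Rluc arrays, and those of Brg1sh_4935 overlapped with Rluc. Brg1sh_3364 minus Rluc was 0.52 (SE 0.06, adjusted p = 0.000247), while the other hairpins gave 0.08 with Brg1sh_3232 and 0.00 with Brg1sh_4935, neither called. The mean change was 0.20 (SE 0.05, adjusted p = 0.00923). The F test called the difference (adjusted p = 0.00284), and the mean change was not called without Brg1sh_3364 (adjusted p = 0.661) or with hairpin means as replicates (0.431).

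Acaca, which makes malonyl-CoA and commits carbon to fatty acids, had levels of 10.30 and 10.21 with Brg1sh_3232, 9.93 and 9.88 with Brg1sh_3364, 9.88 and 9.75 with Brg1sh_4935, against 10.49, 10.35 and 10.20 with Rluc. Brg1sh_3364 and Brg1sh_4935 arrays lay below all Rluc arrays, and those of Brg1sh_3232 lay among them. Changes were -0.09 with Brg1sh_3232 (adjusted p = 0.544), -0.44 with Brg1sh_3364 (adjusted p = 0.00429) and -0.53 with Brg1sh_4935 (adjusted p = 0.00178), and the F test called the difference (adjusted p = 0.0301). The second probe set gave -0.24 with Brg1sh_3232, -0.49 with Brg1sh_3364 and -0.49 with Brg1sh_4935, lay below Rluc in all 6 knockdown arrays, and was not called by the F test over every row (adjusted p = 0.377). The mean change of -0.35 (SE 0.06, adjusted p = 0.00291) did not pass with hairpin means as replicates (adjusted p = 0.136).

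Fasn, fatty acid synthase, had levels of 11.43 and 11.41 with Brg1sh_3232, 10.98 and 10.99 with Brg1sh_3364, 11.04 and 11.06 with Brg1sh_4935, against 11.65, 11.68 and 11.68 with Rluc. Every knockdown array was lower than every Rluc array, and the Brg1sh_3232 arrays were nearest to Rluc. Over the 3 hairpins the change averaged -0.52 (SE 0.03, adjusted p = 5.85e-06). Brg1sh_3364 minus Brg1sh_3232 was -0.43 (SE 0.04, adjusted p = 0.000805) and Brg1sh_4935 minus Brg1sh_3232 was -0.37 (SE 0.04, adjusted p = 0.0107). The synthase thus fell with each hairpin, and less with Brg1sh_3232.

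Elovl6 lengthens palmitate, the product of Fasn, and had levels of 10.47 and 10.36 with Brg1sh_3232, 9.91 and 9.83 with Brg1sh_3364, 10.35 and 10.35 with Brg1sh_4935, against 11.13, 11.17 and 11.23 with Rluc. The groups were wide apart, and Brg1sh_3364 had the lowest arrays. The hairpins averaged a change of -0.96 (SE 0.04, adjusted p = 1e-06), and the level left was 40.4% of the Rluc level (95% interval 37.2% to 44%) with Brg1sh_3364. Brg1sh_3364 minus Brg1sh_3232 was -0.55 (SE 0.06, adjusted p = 0.000909) and Brg1sh_4935 minus Brg1sh_3364 was 0.48 (SE 0.06, adjusted p = 0.00197). Of the other elongases, Elovl5, which serves polyunsaturated chains, fell by 0.37 (SE 0.04, adjusted p = 0.000137) and with each hairpin. Elovl1, for very long chains, had a mean change of -0.12 (SE 0.05, adjusted p = 0.0865).

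Scd2, a desaturase that makes monounsaturated fatty acids, had levels of 12.51 and 12.44 with Brg1sh_3232, 12.68 and 12.57 with Brg1sh_3364, 12.51 and 12.46 with Brg1sh_4935, against 13.31, 13.23 and 13.03 with Rluc. Groups did not overlap, and the hairpins lay close together. Its mean change was -0.66 (SE 0.06, adjusted p = 6.92e-05), or 63.1% of the Rluc level (95% interval 57.2% to 69.7%). Its paralog Scd1, the main form in mouse liver, had a mean change of -0.06 (SE 0.11, adjusted p = 0.768) with a 95% interval of -0.32 to 0.19 and lay below the median level of all genes.

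Fads2 opens the synthesis of long polyunsaturated fatty acids by the first desaturation. Its levels were 8.92 and 8.60 with Brg1sh_3232, 9.56 and 9.43 with Brg1sh_3364, 8.65 and 8.69 with Brg1sh_4935, against 11.69, 11.55 and 10.92 with Rluc. All 6 knockdown arrays lay far below the lowest Rluc array, which was replicate 3 and itself stood under the other controls. Its mean change was -2.41 (SE 0.15, adjusted p = 7.79e-06), or 18.8% of the Rluc level (95% interval 14.8% to 23.9%), and was the fifth lowest of the 19937 genes. By hairpin the level left was 16.2% with Brg1sh_3232, 27% with Brg1sh_3364 and 15.2% with Brg1sh_4935, and the F test did not call a difference between them (adjusted p = 0.0647).

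Fads1, the later desaturase of the same chain, had levels of 11.38 and 11.30 with Brg1sh_3232, 11.31 and 11.20 with Brg1sh_3364, 11.35 and 11.43 with Brg1sh_4935, against 11.94, 11.99 and 11.73 with Rluc. Knockdown arrays were all below Rluc, with a mean change of -0.56 (SE 0.06, adjusted p = 0.000178). Fads3, a related gene, had one of -0.07 (SE 0.04, adjusted p = 0.365) with a 95% interval of -0.17 to 0.04. Like Scd1, Fads3 lay below the median level of all genes. Of the 8 elongases and desaturases 5 fell (Elovl5, Elovl6, Scd2, Fads1 and Fads2), and Elovl1, Scd1 and Fads3 were not called.

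**Figure D3:**
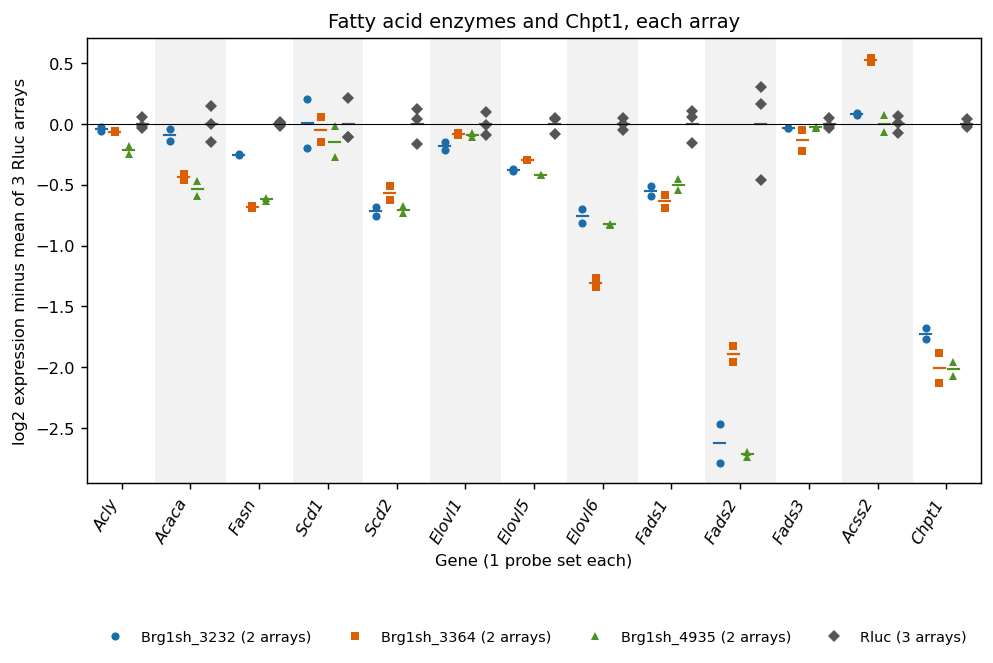
Log2 expression of the 12 fatty acid enzymes and Chpt1 in each array, relative to the mean of the 3 Rluc arrays. Points are arrays and short lines group means. Fads2 and Chpt1 lie lowest in all knockdown arrays, and Acss2 lies above Rluc in both Brg1sh_3364 arrays.

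Chpt1, a choline phosphotransferase of the last step of phosphatidylcholine synthesis, was the other member with a change of this size. Its levels were 7.54 and 7.63 with Brg1sh_3232, 7.42 and 7.18 with Brg1sh_3364, 7.35 and 7.24 with Brg1sh_4935, against 9.28, 9.35 and 9.30 with Rluc. The Rluc arrays lay close together and far above the highest knockdown array. Over the hairpins the change averaged -1.92 (SE 0.06, adjusted p = 2.22e-07), or 26.5% of the Rluc level (95% interval 24.2% to 29%), the ninth lowest of all genes, and the 3 hairpins gave -1.72 with Brg1sh_3232, -2.01 with Brg1sh_3364 and -2.02 with Brg1sh_4935.

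**Figure D4:**
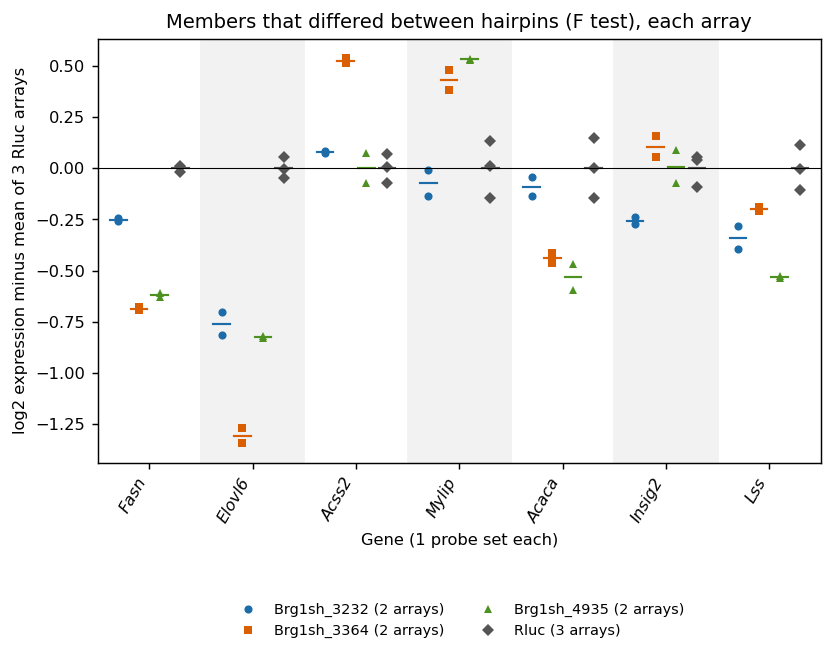
Log2 expression, relative to the mean of the 3 Rluc arrays, of the 7 members whose change differed between hairpins by the F test (adjusted p from 0.00121 for Fasn to 0.0452 for Lss). Points are arrays and short lines group means. Brg1sh_3232 arrays lie nearest to Rluc for Fasn and Acaca, and Brg1sh_3364 arrays stand apart for Elovl6 and Acss2.

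Between hairpins, 6 members were called for Brg1sh_3364 minus Brg1sh_3232, where 9.66% of all genes were. Acaca, Fasn and Elovl6 were lower with Brg1sh_3364 (background 3.84%), and Insig2, Mylip and Acss2 higher (5.81%). For Brg1sh_4935 minus Brg1sh_3232 Fasn was lower and Mylip higher (background 0.411% and 0.612%, 1.02% in all). For Brg1sh_4935 minus Brg1sh_3364 Lss and Acss2 were lower and Elovl6 higher (background 4.51% and 3.10%, 7.61% in all). No other member was called between hairpins. Smarca4 itself did not differ between them by the F test (adjusted p = 0.802).

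Related pathway genes outside the list were read from 5 further lists, with 85 of 96 entries measured. Of these 24 fell and 14 rose in the mean change, with a median of -0.04. Over all genes 15.0% fell and 13.3% rose, and over genes at or above the median level 27.0% fell and 23.0% rose, and nothing particular to these lists is read from their counts. Among 11 other isoprenoid and sterol genes 4 fell and 0 rose. Nus1, of dolichol synthesis, fell by 0.50 (SE 0.06, adjusted p = 0.000291), Fntb, a subunit of farnesyltransferase, by 0.36 (SE 0.06, adjusted p = 0.00187), Pdss2, of the coenzyme Q side chain, by 0.19 (SE 0.03, adjusted p = 0.00205) and Ggps1, which makes geranylgeranyl diphosphate, by 0.14 (SE 0.04, adjusted p = 0.0371).

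Genes of sterol export, storage and lysosomal handling had 3 rises and 0 falls among 8. Npc1 and Npc2, which release cholesterol from lysosomes, rose by 0.45 (SE 0.03, adjusted p = 2.34e-05) and 0.28 (SE 0.04, adjusted p = 0.000721), and Lipa, the lysosomal acid lipase, by 0.21 (SE 0.04, adjusted p = 0.00419). Abca1, a cholesterol exporter, had a mean change of 0.09 (SE 0.04, adjusted p = 0.0972). The rises of Npc1 and Lipa differed between hairpins (F test adjusted p = 0.0226 and 0.0204).

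Of 21 other genes of fatty acid synthesis and activation 4 fell and 3 rose. The chain elongation dehydratase gene Hacd3 fell by 0.63 (SE 0.04, adjusted p = 1.31e-05), while Hacd4 of the same family rose by 0.75 (SE 0.07, adjusted p = 5.39e-05). Elovl7, an elongase, rose by 0.49 (SE 0.06, adjusted p = 0.000485), and Acsl5, an acyl-CoA synthetase, fell by 0.31 (SE 0.05, adjusted p = 0.00112). Among 26 genes of glycerolipid and phospholipid synthesis 8 fell and 5 rose. Lpin1, a phosphatidate phosphatase, rose by 0.97 (SE 0.04, adjusted p = 5.43e-07) and Cds1, a CDP-diacylglycerol synthase, by 0.76 (SE 0.11, adjusted p = 0.000917). Agpat5, an acyltransferase, fell by 0.80 (SE 0.05, adjusted p = 8.44e-06) and Dgat2, of triglyceride synthesis, by 0.68 (SE 0.05, adjusted p = 1.73e-05). Of 19 fatty acid oxidation genes 8 fell and 3 rose. Hadh, Etfb, Acaa2 and Decr1, all mitochondrial, fell by 0.67 (SE 0.04, adjusted p = 3.3e-06), 0.48 (SE 0.04, adjusted p = 2.82e-05), 0.32 (SE 0.03, adjusted p = 0.000169) and 0.32 (SE 0.05, adjusted p = 0.000882). These further lists of fatty acid synthesis and of oxidation each held falls and rises, and nothing about either route as a whole is read from this.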

How the data were processed

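Total RNA of 9 samples of RN2 cells was labelled with biotin and hybridised to Affymetrix arrays, 1 array each, per the labels. The authors deposited 1 table of log2 expression values, which per the submitters' processing notes come from RMA, with its version not given in the sources available. It was used as deposited, without missing values. The platform annotation gives 1 gene symbol for 21640 of 34760 probe sets, several for 1321 and none for 11799. Where a gene had several, its probe set of highest average signal was used, which left 19937 genes. Second probe sets of members were read from a fit over every row.

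A model of 4 group means was fitted jointly in limma 3.58.1 (9 arrays, lmFit and eBayes, R 4.3.3), with two-sided tests and Benjamini-Hochberg adjustment over the 19937 genes, called at an adjusted p below 0.05. Contrasts were each hairpin minus Rluc, the mean of the hairpins minus Rluc, the hairpins against each other, and a moderated F test over the hairpins. Percentages of the Rluc level are 2 to the power of the log2 change. Data of this size were simulated with 67 genes changed by 0.25, 67 by 0.5 and 66 by 1. The mean contrast recovered 49.3%, 91% and 100% of them, with 6 false calls. A far smaller share of genes changed there than was called in the data. The adjustment depends on that share, so these rates do not carry over directly. The number of arrays limits the precision.

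The members and all lists were chosen with earlier results of these data known. Values in every array are given for the 5 sterol enzymes, 3 sensing genes and 5 fatty acid enzymes with the largest absolute mean change, for Chpt1, and for up to 6 members called by the F test; from each further list the 4 genes with the smallest p are named. Alternatives changed normalisation, filters, probe sets, the model, thresholds and the arrays used. Deviations from the group mean correlated at -0.07 to 0.25 between arrays of the same replicate number, above 0.1 in 2 of 12 pairs. With 2 arrays per hairpin these pairs are not independent. Whether the number marks a shared batch was not tested.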

Additional observations from a re-analysis of the deposited data

Results flagged for a closer look

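Members whose change against Rluc differed between the 3 hairpins by the F test are given here with its adjusted p: Fasn (0.00121), Elovl6 (0.00139), Acss2 (0.00284), Mylip (0.0057), Acaca (0.0301), Insig2 (0.0314) and Lss (0.0452). These 7 of 37 stand beside 10.5% of all genes. The share among genes at or above the median level, where 35 of the 37 lie, was not computed. Nothing particular to the members is read from this count. No group had enough arrays for a search for outlying arrays.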

How the results depend on the processing

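Under 25 alternative settings no called member reversed its direction. Of the 24 members called in the mean change, 17 were called under every alternative run for it; for single hairpins these numbers were 13 of 20 with Brg1sh_3232, 15 of 20 with Brg1sh_3364 and 18 of 24 with Brg1sh_4935. Of the 13 members not called in the mean change, 6 were called under at least 1 alternative (Pmvk, Tm7sf2, Msmo1, Srebf2, Acly and Elovl1, each lower); for single hairpins these numbers were 3 of 17, 6 of 17 and 3 of 13 in the same order. With only the arrays of Brg1sh_3232 and Rluc in the fit, 13 members were called and 6 sterol enzymes fell, against 20 and 11; fewer arrays then estimate the spread. At an adjusted p below 0.01, 7 sterol enzymes fell with Brg1sh_3232. The 7 members that differed between hairpins became 4 at that threshold and 4 with every row tested. The 38 called genes of the further lists became 22 with a minimum absolute change of 0.25, 22 with hairpin means as replicates and 21 with hairpin as a random block; the cause was not tested. Leaving out 1 array at a time gave 21 to 26 called members in the mean change, 14 to 21 with Brg1sh_3232, 15 to 24 with Brg1sh_3364 and 19 to 27 with Brg1sh_4935. Sterol enzymes that fell then numbered 10 to 13 in the mean change, 7 to 12, 5 to 12 and 9 to 14 in the same order of hairpins, and fatty acid enzymes 7 to 8, 6 to 7, 7 to 8 and 7 to 8. Members differing between hairpins numbered 3 to 8 (3 without Brg1sh_3232 replicate 1, 4 without Brg1sh_3232 replicate 2, Brg1sh_3364 replicate 2 or Brg1sh_4935 replicate 1), and called genes of the further lists 29 to 34. What the replicate numbers mark is not stated. With the replicate number as a block, 26 members were called in the mean change and 15 sterol enzymes fell. Tm7sf2 (adjusted p = 0.00369) and Msmo1 (0.027) were among them, and Acss2 was not called (0.061). Only Rluc has a replicate 3, so this block takes that array out of the comparison. The mean change of Tm7sf2 was -0.357 with the block and also without Rluc replicate 3. With 2 or 3 arrays per group, a member that was not called is not shown to be unchanged. Changes of about 0.25 were often missed in simulated data, where a smaller share of genes changed than was called here.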

Other observations

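Among the related lists, differences between hairpins in 3 genes were picked out after their values were seen; Mbtps1 and Abcg1 also fall outside the rule for naming genes. Mbtps1, the site-1 protease that cleaves SREBP, had log2 levels of 11.73 and 11.70 with Brg1sh_3232, 11.44 and 11.45 with Brg1sh_3364, 10.94 and 10.84 with Brg1sh_4935, against 11.39, 11.40 and 11.32 with Rluc. It rose with Brg1sh_3232 by 0.34 (SE 0.05, adjusted p = 0.00139), fell with Brg1sh_4935 by 0.48 (SE 0.05, adjusted p = 0.000171), and had a mean change of -0.02 (SE 0.04, adjusted p = 0.798). The F test over the hairpins gave an adjusted p of 0.000263. Abcg1, a sterol exporter and LXR target, gave -0.57 with Brg1sh_3232 (adjusted p = 0.00394), 0.26 with Brg1sh_3364 (adjusted p = 0.0923) and -0.18 with Brg1sh_4935 (adjusted p = 0.283), with an F test adjusted p of 0.00508. Dgat2 fell with each hairpin, by 0.73 with Brg1sh_3232, 0.25 with Brg1sh_3364 and 1.04 with Brg1sh_4935, and the F test called the difference (adjusted p = 0.000981).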
